A study of Mus musculus with 8 samples.

Results

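The TFH lineage transcription factors described here are Bcl6, Ascl2, Maf, Tox, Tox2, Batf, Irf4, Prdm1, Tcf7 and Lef1. They were taken by gene symbol, and all 10 were present among the 14042 genes measured in each of 8 mouse RNA sequencing libraries. T follicular helper (TFH) cells are the CD4 T cells of germinal centres, where they select B cells. For TFH KO and TFH WT, CD8-depleted spleen cells of C5aR1-/- (KO) or wild type (WT) donors were injected into (bxd)F1 mice, and donor CD4 cells with CXCR5 and high PD1 were sorted on day 7. C5aR1 is a receptor for the complement fragment C5a. Naive KO and naive WT are CD4 cells of the same genotypes sorted as naive by surface markers, low CD44 among them, and are not described as transferred. The label and the transfer therefore cannot be told apart. Each group holds 2 libraries, the KO is not described as restricted to T cells, and the labels give no sex, age, donor strain or pooling. The labels do not say whether the 2 libraries of a group are separate animals, and the sex-linked transcripts show it for naive KO alone. The p-values measure the spread between these libraries, which may be technical. In sorted bulk samples, fewer cells of a type and less RNA per cell cannot be told apart.

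As background, TFH fate rests on a network of these factors. BCL6 is a zinc-finger repressor that is required for TFH cells, and BLIMP1, the product of Prdm1, is a repressor of effector differentiation; each represses the gene of the other. ASCL2 is a basic helix-loop-helix factor that can induce CXCR5, and MAF is a basic leucine zipper factor that promotes Il21 and Il4. TOX and TOX2 are HMG-box proteins of TFH and exhausted T cells. BATF pairs with JUN proteins and IRF4 on composite sites downstream of the T cell receptor. TCF1 (Tcf7) and LEF1 are HMG-box factors that are abundant in naive T cells and act upstream of Bcl6.

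Ascl2, Tox2 and Irf4 were called higher in TFH-labelled libraries in each genotype, and Bcl6 is the factor that defines the lineage, so the DNA just upstream of these 4 genes is shown. RefSeq windows on GRCm38.p6, the build behind mm10, were found for 8 of the 10 members, and the 250 bases before the start site nearest to the GENCODE vM21 gene start are printed on the gene's strand. The Ascl2 window is chr7:142969265-142969514 on the minus strand and the Tox2 window is chr2:163202877-163203126 on the plus strand. The Irf4 window is chr13:30748983-30749232 on the plus strand and the Bcl6 window is chr16:23988853-23989102 on the minus strand. Capitals mark matches to any of 5 motifs searched on both strands: the E-box CACCTG, the AP-1 site TGANTCA, the TCF/LEF site CTTTGAT, the STAT site TTCNNNGAA and the NF-kB site, GGGA and CC with 4 bases of any kind between them.
Ascl2: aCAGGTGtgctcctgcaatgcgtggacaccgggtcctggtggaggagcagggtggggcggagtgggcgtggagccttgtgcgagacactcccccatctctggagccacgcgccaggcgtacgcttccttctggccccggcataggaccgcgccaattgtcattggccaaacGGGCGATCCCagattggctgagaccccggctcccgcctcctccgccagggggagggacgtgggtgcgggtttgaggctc
Tox2: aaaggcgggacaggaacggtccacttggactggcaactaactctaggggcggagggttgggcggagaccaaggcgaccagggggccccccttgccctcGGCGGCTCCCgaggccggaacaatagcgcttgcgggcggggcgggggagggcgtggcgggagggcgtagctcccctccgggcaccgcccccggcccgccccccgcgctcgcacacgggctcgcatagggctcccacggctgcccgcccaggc
Irf4: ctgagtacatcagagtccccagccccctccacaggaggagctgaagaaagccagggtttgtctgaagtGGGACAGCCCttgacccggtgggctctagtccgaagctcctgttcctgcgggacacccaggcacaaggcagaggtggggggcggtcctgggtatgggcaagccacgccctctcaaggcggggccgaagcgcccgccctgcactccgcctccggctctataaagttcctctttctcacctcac
Bcl6: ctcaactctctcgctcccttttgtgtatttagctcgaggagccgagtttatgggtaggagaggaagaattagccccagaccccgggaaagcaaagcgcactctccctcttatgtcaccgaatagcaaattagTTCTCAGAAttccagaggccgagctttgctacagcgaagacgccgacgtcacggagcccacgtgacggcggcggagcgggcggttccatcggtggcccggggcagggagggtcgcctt

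In the printed windows, Ascl2, Tox2 and Irf4 each held 1 match to the NF-kB letters, which 17.6% of 32851 windows of this length hold. These were 3 of the 8 members with a window. Ascl2 also held 1 E-box, a motif in 17.2% of windows, and Bcl6 held 1 match to the STAT letters, found in 7.02%. Of the 4 windows not printed, that of Prdm1 held 1 E-box and 1 AP-1 match (6.75% of all windows), while those of Batf, Tcf7 and Lef1 held none of the 5. The Prdm1 window, chr10:44458749-44458998 on the minus strand, lies inside the GENCODE span of the gene, 44437177 to 44528501. The TCF/LEF letters, found in 3.21% of all windows, matched in none of the 8. The motifs were chosen after the windows were at hand, no match overlapped another in the printed windows, and a match is a string of letters and not a shown binding site.

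Levels are the deposited log2 values, which had been quantile normalized, and the read depth of each library is unknown. Because no length correction is stated, each gene is compared between libraries and levels are not compared between genes. Differences are log2 differences of group means ± SE from limma, and a gene was called at a Benjamini-Hochberg adjusted p below 0.05 over all 14042 genes. The T cell identity genes Cd3e and Cd4 were high in every library, at 13.75 to 13.99 and 15.48 to 15.69. Il21, the TFH cytokine gene, was 9.58 to 10.40 in the TFH-labelled libraries, against 7.31 to 8.19 in the naive-labelled ones, whereas Cxcr5, a sort marker, was 10.85 to 11.56 in TFH-labelled and 11.56 to 12.45 in naive-labelled ones. Cd44, which was low at the surface of the sorted naive cells, was 11.97 to 12.11 in TFH-labelled and 12.53 to 13.04 in naive-labelled libraries. The transcripts of these 2 sort markers went against the labels, and groups are called by their labels. Pdcd1, the gene of PD1, was 11.88 to 12.85 in TFH-labelled libraries, overlapping the 10.80 to 11.97 of naive-labelled ones. Cd44 and Pdcd1 were added as sort markers after their values were seen. All 15 listed B cell markers were measured, none at 0. Their summed log2 level was 11.96 and 15.47 in TFH KO replicates 1 and 2, 12.17 and 14.03 in TFH WT, 14.07 and 13.34 in naive KO, and 13.62 and 12.93 in naive WT. Replicate 2 of each TFH group therefore carried more B cell RNA than replicate 1. Naive KO replicate 1 alone had Xist at 14.61 and Ddx3y at 5.67, while the other 7 libraries had Xist at 4.44 to 5.56 and Ddx3y at 12.54 to 13.16. Xist is the X-inactivation RNA of females and Ddx3y lies on the Y chromosome, so the naive KO libraries cannot both come from 1 animal. Comparisons that use naive KO therefore mix sex in part with genotype or label. The part of sex in them was not tested beyond the fits without naive KO replicate 1. C5ar1 was not analysed here, so the genotype was not checked on its own transcript.

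**Figure D1:**
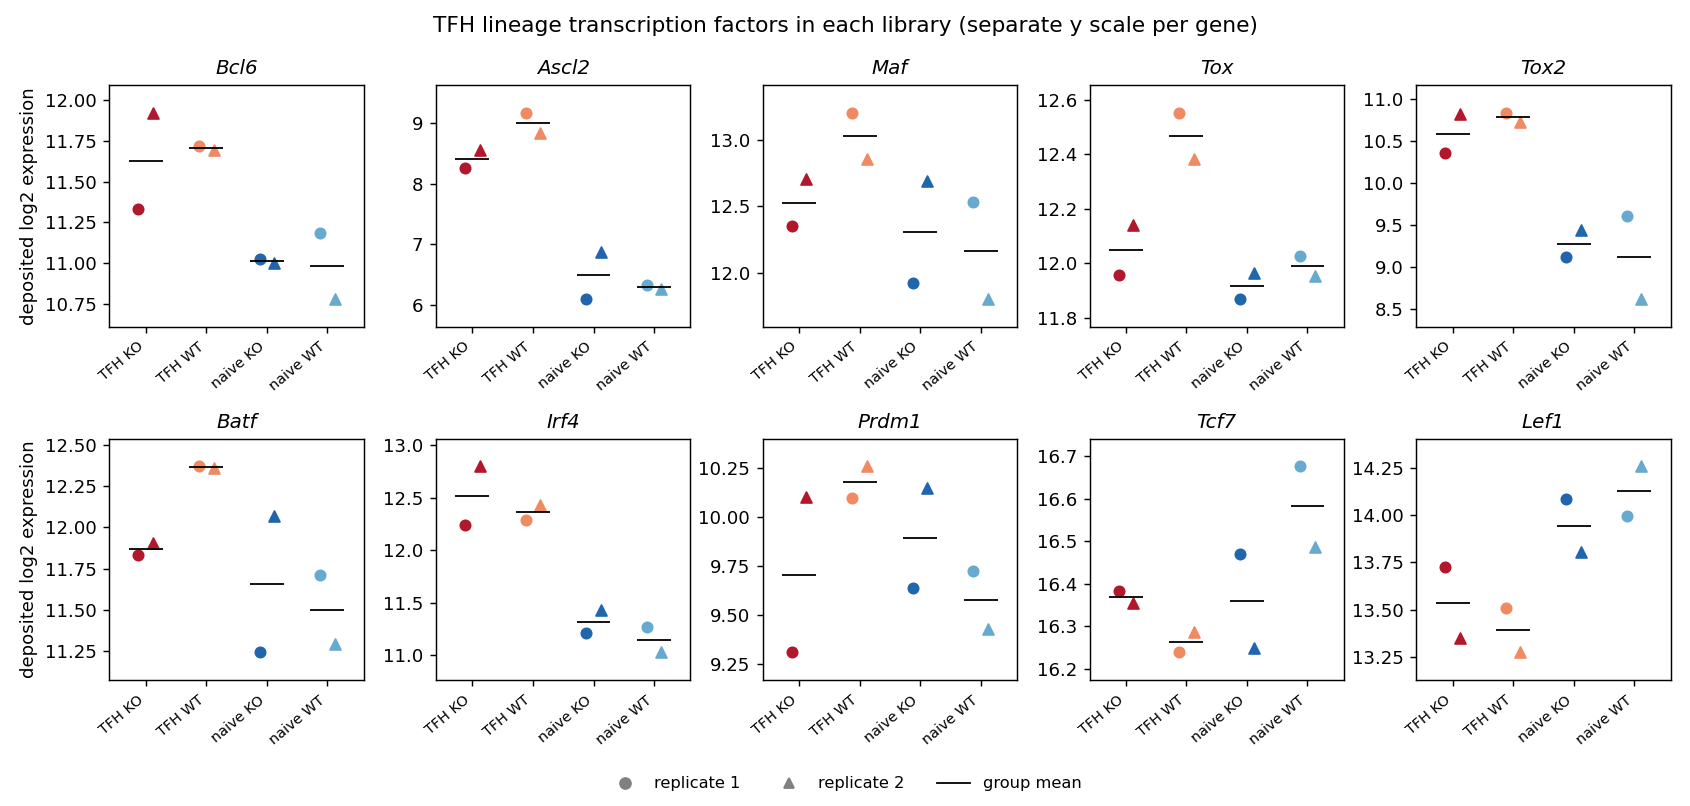
Deposited log2 expression of the 10 members in each library, with 1 panel and 1 scale per gene; circles are replicate 1, triangles replicate 2 and lines group means. Ascl2, Tox2, Irf4 and Bcl6 were higher in all 4 TFH-labelled than in all 4 naive-labelled libraries, and Lef1 was lower in all 4.

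The first question was which of these factors distinguish the TFH-labelled from the naive-labelled cells. Averaged over both genotypes, Ascl2, Tox2, Irf4, Bcl6 and Tox rose and Lef1 fell. Ascl2 changed most, by 2.32 ± 0.19 or 4.99-fold, followed by Tox2 at 1.49 ± 0.24 or 2.81-fold and Irf4 at 1.21 ± 0.13 or 2.31-fold. Maf, Batf, Prdm1 and Tcf7 did not pass the test. Markers of other cells also moved with the label. The summed log2 level of 15 of 16 listed myeloid markers was 11.85 to 13.30 in TFH-labelled and 13.77 to 15.38 in naive-labelled libraries. That of all 12 CD8 T and NK cell markers was 12.48 to 13.32 in TFH-labelled and 13.67 to 14.02 in naive-labelled libraries, and that of 5 of 8 erythroid markers was 9.23 to 9.73 in TFH-labelled and 10.19 to 11.10 in naive-labelled libraries. Some of these markers were low, such as S100a9 at 3.33 in TFH WT replicate 1. The labels did not overlap for any of the 3 lists, and the part of these other cells in the members' differences was not tested. The count was 6 called members of 10, where 38.1% of all genes were called. Higher calls made up 5 members, against 18.3% of all genes, and lower calls 1 member, against 19.8%. Libraries of the 2 labels did not overlap for 4 members that were higher and 1 that was lower, as for 18.2% and 20.3% of all genes. The median log2 difference was 0.54 over the members and 0.00 over all genes. The same 6 members stayed called with each of the 8 libraries left out in turn and without replicate 2 of both TFH groups.

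Within WT, 5 members were called higher and 2 lower, where 26.3% of all genes were called, 12.6% higher and 13.7% lower. Every member separated completely: 8 were higher in both TFH WT libraries than in both naive WT libraries and 2 were lower, as were 33.1% and 32% of all genes. The count of 7 became 3 when either TFH WT library was left out and 4 when naive WT replicate 2 was left out. Within KO, 3 members were called, all higher, where 19.5% of all genes were called and 9.12% were higher. TFH KO and naive KO libraries did not overlap for 4 members that were higher and 1 that was lower, as for 27.6% and 30.6% of all genes. The median member difference was 0.22 in KO and 0.79 in WT, beside -0.01 and 0.01 for all genes. The WT and KO comparisons share no library, but the same model gave both the same SE for each gene. Leaving out a KO library can therefore change a call in WT, and the reverse, while the difference itself stays the same. A group left with 1 library adds nothing to the estimate of spread, so a call gained in such a fit adds no support.

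**Figure D2:**
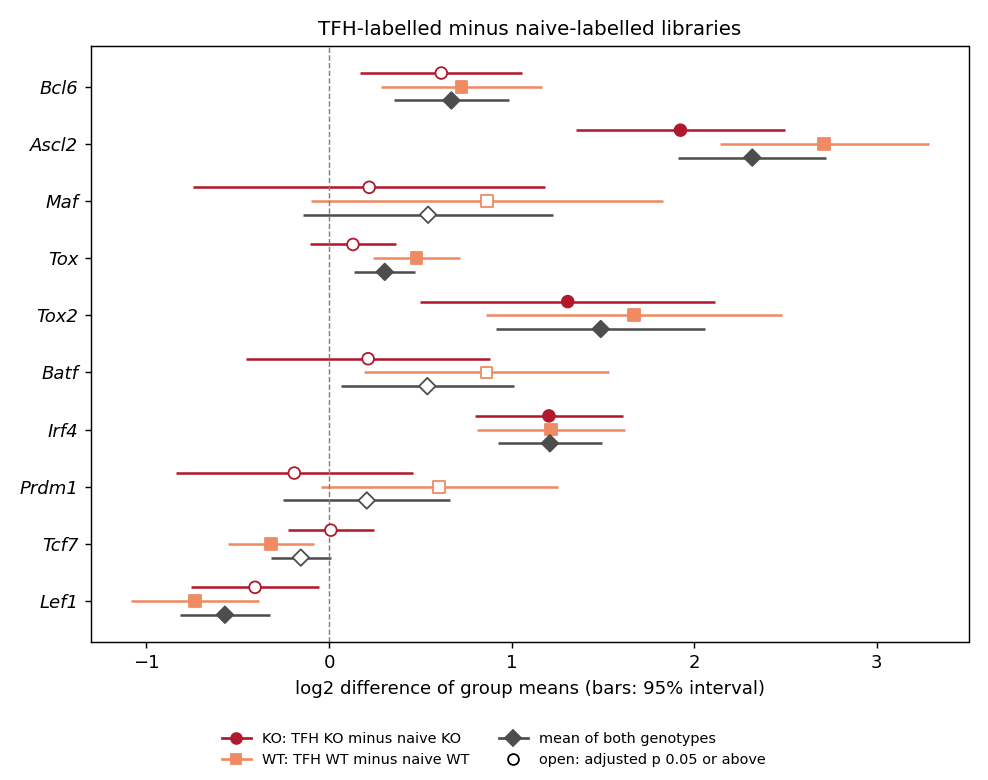
Log2 difference between TFH-labelled and naive-labelled group means for each member in KO (circles), WT (squares) and the mean of both genotypes (diamonds), with 95% intervals; filled symbols were called. Ascl2, Tox2 and Irf4 are filled in all 3, while the KO circles of Maf, Tox, Batf, Prdm1 and Tcf7 lie near 0.

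Bcl6 (chromosome 16, 23965052 to 23988852, GENCODE vM21 on GRCm38) was 11.33 and 11.92 in TFH KO, 11.72 and 11.70 in TFH WT, a mean of 11.01 ± 0.02 in the 2 close naive KO libraries (SD, n = 2), and 11.18 and 10.78 in naive WT. All TFH-labelled libraries stood above all naive-labelled ones, but TFH KO replicate 1 exceeded naive WT replicate 1 by little. The rise averaged 0.67 ± 0.14, or 1.59-fold (adjusted p = 0.00514 by limma). Taken by genotype it was 0.62 ± 0.19 in KO, which missed the threshold (adjusted p = 0.0579), and 0.73 ± 0.19 in WT (adjusted p = 0.0253). The call in KO was made without TFH KO replicate 1 (0.91, adjusted p = 0.00352), without naive WT replicate 1 (adjusted p = 0.0399) or replicate 2 (adjusted p = 0.0411), and when the mean of the B cell markers entered as a covariate (0.62, adjusted p = 0.0085). Without TFH KO replicate 2 the value was 0.32. The call in WT held in 11 of 17 alternatives and ended without either TFH WT library, either naive KO library or naive WT replicate 2, with values of 0.53 to 0.74. It also ended with each library centred on its ribosomal protein genes (0.72, adjusted p = 0.0871).

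Ascl2, a gene of chromosome 7 (142966829 to 142969264), was 8.26 and 8.56 in TFH KO, 9.17 and 8.84 in TFH WT, 6.10 and 6.87 in naive KO, and 6.33 and 6.26 in naive WT. The lowest TFH-labelled library exceeded the highest naive-labelled one. The rise was 1.93 ± 0.26 or 3.8-fold in KO (adjusted p = 0.000445) and 2.71 ± 0.26 or 6.55-fold in WT (adjusted p = 3.24e-05). Each call held in all 16 alternatives in which Ascl2 was tested, and the filter on low levels removed it. The size of the rise was less stable. It ranged from 1.38 to 2.31 in KO and from 2.02, with a linear pseudocount of 64, to 2.88 in WT. Over the mean of both genotypes it ranged from 1.70 to 2.51. The naive-labelled levels were low, not far above Ddx3y at 5.67 in naive KO replicate 1, so the fold depends on values near the floor. The group means ran from 6.30 ± 0.05 in naive WT and 6.49 ± 0.55 in naive KO to 8.41 ± 0.21 in TFH KO and 9.01 ± 0.23 in TFH WT (SD, n = 2). The naive groups overlapped, and the TFH groups did not.

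Tox and Tox2 encode related HMG-box proteins and were both called higher, by unequal amounts. Tox2 (chromosome 2, 163203125 to 163324170) was 10.36 and 10.82 in TFH KO, 10.84 and 10.73 in TFH WT, 9.12 and 9.44 in naive KO, and 9.61 and 8.62 in naive WT. No naive-labelled library reached a TFH-labelled one. It rose by 1.31 ± 0.33 in KO (adjusted p = 0.0409) and by 1.67 ± 0.33 in WT (adjusted p = 0.0134). With each library centred on its ribosomal protein genes, the KO value was 1.37 and not called (adjusted p = 0.0512). The KO call held in 2 of the 8 fits that leave out 1 library, those without naive WT replicate 1 or 2, with values from 1.07 without TFH KO replicate 2 to 1.54 without TFH KO replicate 1. The WT call ended without TFH WT replicate 1 (1.62, adjusted p = 0.0823) or replicate 2 (1.72, adjusted p = 0.0743). Tox (chromosome 4, 6686353 to 6991557) was 11.96 and 12.14 in TFH KO, 12.55 and 12.38 in TFH WT, 11.87 and 11.96 in naive KO, and 12.03 and 11.95 in naive WT. The TFH WT libraries stood above the other 6, which overlapped. Tox was not called in KO at 0.13 ± 0.11 (adjusted p = 0.449) and rose in WT by 0.48 ± 0.11 (adjusted p = 0.00713). Without TFH WT replicate 1 the WT value was 0.39 (adjusted p = 0.0732), and without naive WT replicate 2 it was 0.44 (adjusted p = 0.0545).

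Irf4, Batf and Maf act downstream of antigen receptor and cytokine signals. Irf4 (chromosome 13, 30749226 to 30766976) was 12.24 and 12.80 in TFH KO, 12.29 and 12.43 in TFH WT, 11.20 and 11.43 in naive KO, and 11.27 and 11.02 in naive WT. The TFH-labelled libraries all lay above the naive-labelled ones. Its rise was 1.20 ± 0.18 in KO (adjusted p = 0.00205) and 1.22 ± 0.18 in WT (adjusted p = 0.00148). Both calls held in all 17 alternatives, with values of 0.93 to 1.48 in KO and 1.09 to 1.34 in WT. Irf4 is also made by plasma cells. The mean log2 level of 6 plasma cell markers other than Irf4 and Prdm1 was 8.87 and 11.06 in TFH KO, 9.83 and 10.64 in TFH WT, 9.51 and 9.49 in naive KO, and 10.08 and 8.82 in naive WT. The part of plasma cells in the Irf4 level was not tested.

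Batf (chromosome 12, 85686669 to 85709087) was 11.83 and 11.90 in TFH KO, 12.37 and 12.36 in TFH WT, 11.24 and 12.07 in naive KO, and 11.71 and 11.29 in naive WT. The naive KO libraries lay on either side of the TFH KO libraries, so no direction can be read in KO, at 0.21 ± 0.27 (adjusted p = 0.657). Without naive KO replicate 2 the KO difference was 0.63, and without naive KO replicate 1 it was -0.20. In WT the groups did not overlap and the difference of 0.86 ± 0.27 was not called (adjusted p = 0.0672). It was called in 6 of 17 alternatives. Among them were the fit to the compared groups only (adjusted p = 0.000732) and those without naive KO replicate 1 or replicate 2. The mean over genotypes, 0.54 ± 0.19, was 0.33 without naive KO replicate 1 and 0.74 without replicate 2. The naive KO libraries differed by 0.82 for Batf, more than those of any other group. A fit without 1 or both of them drops that spread by construction, so the calls made there add no support.

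Maf (chromosome 8, 115682942 to 115707794) was 12.35 and 12.71 in TFH KO, 13.21 and 12.86 in TFH WT, 11.92 and 12.69 in naive KO, and 12.53 and 11.80 in naive WT. Only in WT did the labels separate. The differences were 0.22 ± 0.37 in KO (adjusted p = 0.75) and 0.86 ± 0.37 in WT (adjusted p = 0.168), and none of 17 alternatives called either. The 95% interval in WT, -0.10 to 1.83 reaches below 0.

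Tcf7 and Lef1, the HMG-box factors of naive T cells, had their highest group means in naive WT. Lef1 (chromosome 3, 131110471 to 131224356) was 13.73 and 13.35 in TFH KO, 13.51 and 13.27 in TFH WT, 14.08 and 13.80 in naive KO, and 14.00 and 14.26 in naive WT. Every TFH-labelled library lay below every naive-labelled one, and the fall averaged -0.57 ± 0.11 (adjusted p = 0.00243). By genotype it was -0.41 ± 0.16 in KO (adjusted p = 0.1), and -0.74 ± 0.16 in WT (adjusted p = 0.00667). The WT call ended without TFH WT replicate 2 (-0.62, adjusted p = 0.0582) or naive WT replicate 2 (-0.61, adjusted p = 0.0614), and the KO value was called without TFH KO replicate 1 (-0.59, adjusted p = 0.0379). Tcf7 (chromosome 11, 52252371 to 52283014) was 16.38 and 16.36 in TFH KO, 16.24 and 16.29 in TFH WT, 16.47 and 16.25 in naive KO, and 16.68 and 16.49 in naive WT. Its range over all 8 libraries was narrow, and the labels overlapped in KO. Tcf7 was at 0.01 ± 0.11 in KO (adjusted p = 0.961) and was called lower in WT at -0.32 ± 0.11 (adjusted p = 0.0464), a call that 8 of 17 alternatives kept and that 5 of the 8 fits with 1 library left out ended. Those were the fits without either TFH KO library (-0.32 each), TFH WT replicate 1 (-0.29) or replicate 2 (-0.34), or naive WT replicate 1 (-0.22).

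Prdm1 (chromosome 10, 44437177 to 44528501), which encodes the BCL6 antagonist, was 9.31 and 10.10 in TFH KO, 10.10 and 10.26 in TFH WT, 9.64 and 10.15 in naive KO, and 9.72 and 9.43 in naive WT. TFH KO replicate 1 was the lowest of the 8 libraries and TFH WT replicate 2 the highest. The difference between labels was -0.19 ± 0.28 in KO (adjusted p = 0.698) and 0.60 ± 0.28 in WT (adjusted p = 0.158). In WT it was called without TFH KO replicate 1 (adjusted p = 0.0334) or replicate 2 (adjusted p = 0.0333), when only the groups compared were fitted (adjusted p = 0.00947) and when the B cell covariate was added (0.64, adjusted p = 0.0479). In KO it was -0.59 without TFH KO replicate 2 and 0.21 without TFH KO replicate 1, and uncalled in each. Plasma cells express Prdm1 strongly, and replicate 2 was higher than replicate 1 for Prdm1 and for the 6 plasma cell markers in both TFH groups; their part in the Prdm1 level was tested only through the B cell covariate.

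The difference between Bcl6 and Prdm1 within a library was compared over labels because the products oppose each other. It was 2.02 and 1.82 in TFH KO, 1.62 and 1.44 in TFH WT, 1.38 and 0.85 in naive KO, and 1.46 and 1.36 in naive WT. The lowest TFH value, in TFH WT replicate 2, fell just under the highest naive value. It averaged 1.73 ± 0.25 in the TFH-labelled libraries and 1.26 ± 0.28 in the naive-labelled ones (SD, n = 4 each), a difference of 0.46 with p = 0.0571 by a two-sided exact permutation test whose smallest p is 0.0286. Without TFH WT replicate 2 the difference was 0.56 (exact permutation p = 0.0286). That library alone among the TFH-labelled ones lay under a naive value. Leaving it out therefore separates the labels by construction, and this p adds no support. The mean of Tcf7 and Lef1 minus Prdm1 was 5.75 and 4.75 in TFH KO, 4.77 and 4.52 in TFH WT, 5.64 and 4.87 in naive KO, and 5.61 and 5.94 in naive WT. The labels overlapped, at 4.95 ± 0.54 in the TFH-labelled libraries and 5.52 ± 0.45 in the naive-labelled ones (exact permutation p = 0.2, n = 4 each). These are 2 tests, and neither passed.

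**Figure D3:**
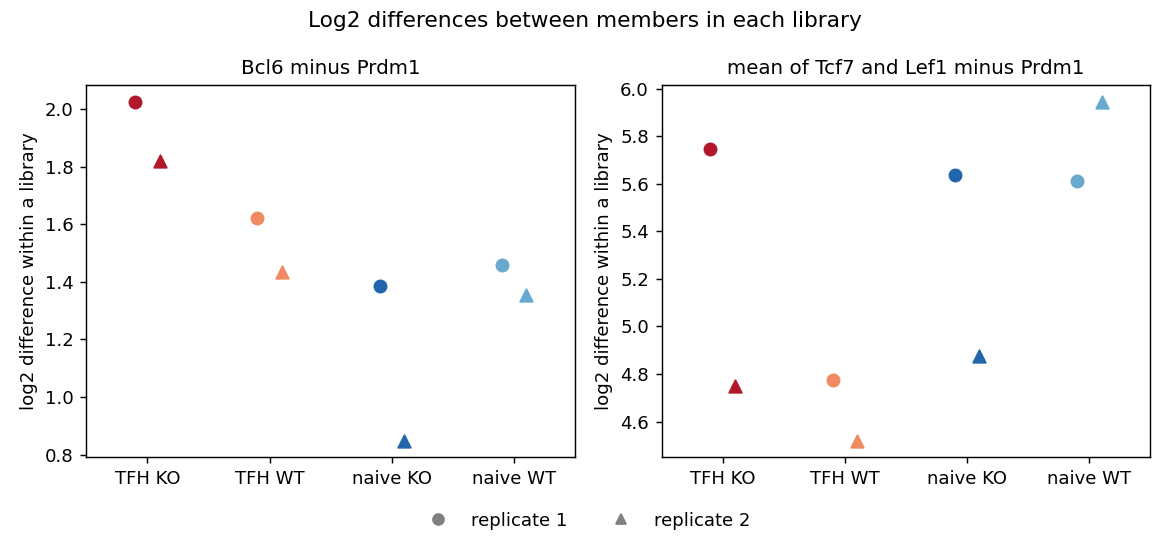
Log2 difference within each library between Bcl6 and Prdm1 (left) and between the mean of Tcf7 and Lef1 and Prdm1 (right); circles are replicate 1 and triangles replicate 2. On the left the TFH KO libraries are highest, at 2.02 and 1.82; on the right TFH KO replicate 1, at 5.75, lies apart from the other 3 TFH-labelled libraries.

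The second question was whether loss of C5aR1 in donor cells changed these factors. Among TFH-labelled libraries no member was called, and neither was any other gene (0% of 14042) by limma. Of the members, 7 had negative differences and 3 positive, with a median of -0.31 beside 0.00 for all genes. TFH KO lay wholly below TFH WT for Ascl2, Maf, Tox and Batf and wholly above it for Tcf7. Of all genes, 16.5% lay wholly below and another 16.5% wholly above. Tox had the smallest p, at -0.42 ± 0.11 (unadjusted p = 0.00229, 95% interval -0.66 to -0.18), followed by Ascl2 at -0.60 ± 0.26 (unadjusted p = 0.0422). These 2 members, and 506 genes in all, had an unadjusted p below 0.05. Batf was at -0.50 ± 0.27, Maf at -0.50 ± 0.37, Prdm1 at -0.47 ± 0.28 and Tox2 at -0.20 ± 0.33. Bcl6 was at -0.08 ± 0.19, with a 95% interval from -0.52 to 0.36, and Irf4 at 0.16 ± 0.18, from -0.25 to 0.57. Lef1 was at 0.15 ± 0.16 and Tcf7 at 0.11 ± 0.11. Without TFH KO replicate 1 the sign of Bcl6 turned (0.21), as did those of Tox2 (0.04) and Lef1 (-0.04). Without TFH KO replicate 2 that of Irf4 turned (-0.12). Prdm1 was -0.08 without TFH KO replicate 1 and -0.87 without TFH KO replicate 2. Ascl2 lies on the same chromosome as C5ar1, 126.7 Mb away.

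**Figure D4:**
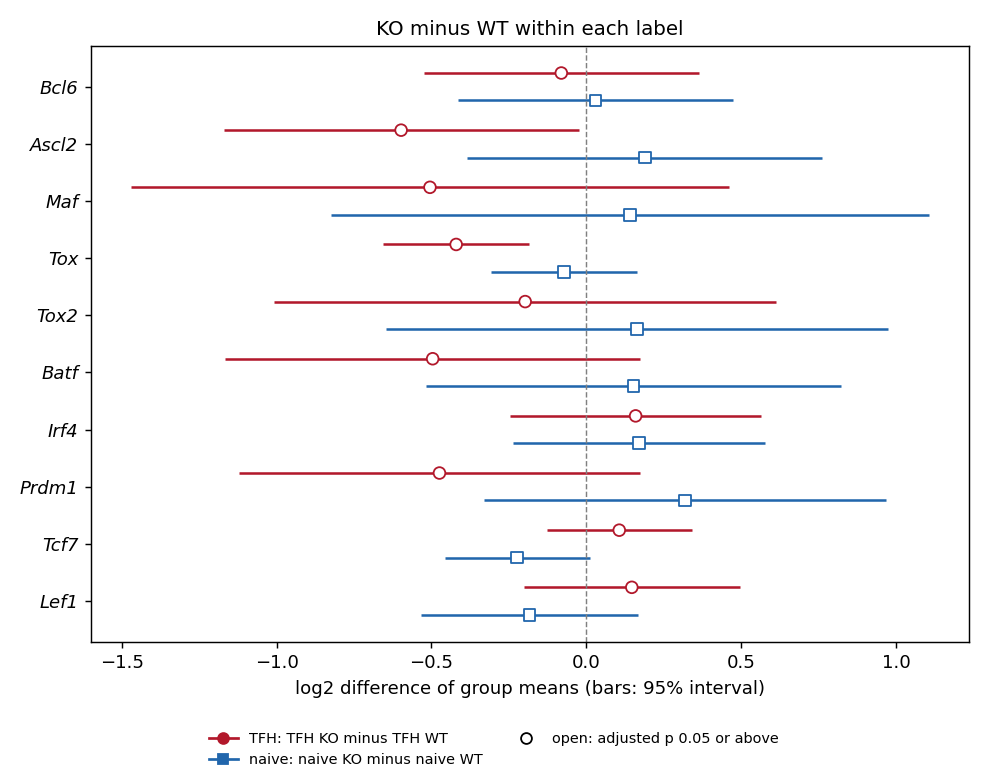
Log2 difference between KO and WT group means for each member in TFH-labelled (circles) and naive-labelled (squares) libraries, with 95% intervals; open symbols were not called. All symbols are open, and in the TFH-labelled libraries the intervals of Tox (-0.66 to -0.18) and Ascl2 (-1.17 to -0.03) do not reach 0.

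Among naive-labelled libraries no member was called either, where 0.0712% of all genes were, 0.0356% higher and 0.0356% lower. None had an unadjusted p below 0.05, against 355 of all genes. The largest differences were Prdm1 at 0.32 ± 0.28 and Tcf7 at -0.22 ± 0.11, and naive KO lay wholly below naive WT for Tcf7, as for 11.2% of all genes. The interaction, which asks whether the TFH-naive difference depended on genotype, called none of the members and 0.0142% of all genes, 0.00712% in each direction. Prdm1 stood at -0.79 ± 0.39, Ascl2 at -0.79 ± 0.37, Batf at -0.65 ± 0.39 and Tox at -0.35 ± 0.15. Tox had the smallest p of the members (unadjusted p = 0.0424, adjusted p = 0.997), beside 614 genes with an unadjusted p below 0.05. The smaller count of calls in KO than in WT is therefore not shown to be a difference between genotypes. No member was called in any alternative for these 3 comparisons, and the interaction shares its libraries with each of the others. Sex is partly mixed with genotype in the naive comparison and in the interaction, because naive KO replicate 1 alone had high Xist.

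The members also varied between libraries of the same group, and several did so in the same direction. Ascl2, Maf, Tox, Tox2, Batf, Irf4 and Prdm1 were higher in naive KO replicate 2 than in replicate 1, and lower in naive WT replicate 2 than in replicate 1. Some of these differences were small. Tox in naive KO (0.10) was below the median absolute difference of all genes there, 0.16. Tox and Ascl2 in naive WT (-0.07 each) were smaller in size than the 0.15 there. The share of all genes with this pattern of signs was not computed. In naive KO the replicate 2 minus replicate 1 difference was 0.82 for Batf, 0.78 for Ascl2 and 0.77 for Maf, outside the 0.59 that held 95% of all genes. These 2 libraries also differ in sex by Xist and Ddx3y. In naive WT it was -0.99 for Tox2 and -0.73 for Maf, outside the 0.69 that held 95% of all genes. Pdcd1, which encodes PD1 and was picked after its values were seen, moved with them, at 10.96 and 11.97 in naive KO replicates 1 and 2 and at 11.84 and 10.80 in naive WT. The mean of 15 myeloid markers was 9.06 and 9.09 in naive KO and 10.33 and 8.98 in naive WT. In TFH KO, Prdm1 was 0.79 higher in replicate 2, Bcl6 0.59 and Irf4 0.55, and the mean of the 15 B cell markers was 7.49 in replicate 1 and 11.06 in replicate 2. In TFH WT, where that mean was 7.61 and 9.63, Prdm1 was 0.16 higher in replicate 2, Irf4 0.14 higher and Bcl6 0.03 lower. The part of these cells in the members' levels was not tested beyond the B cell covariate and the fits without those libraries.

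**Figure D5:**
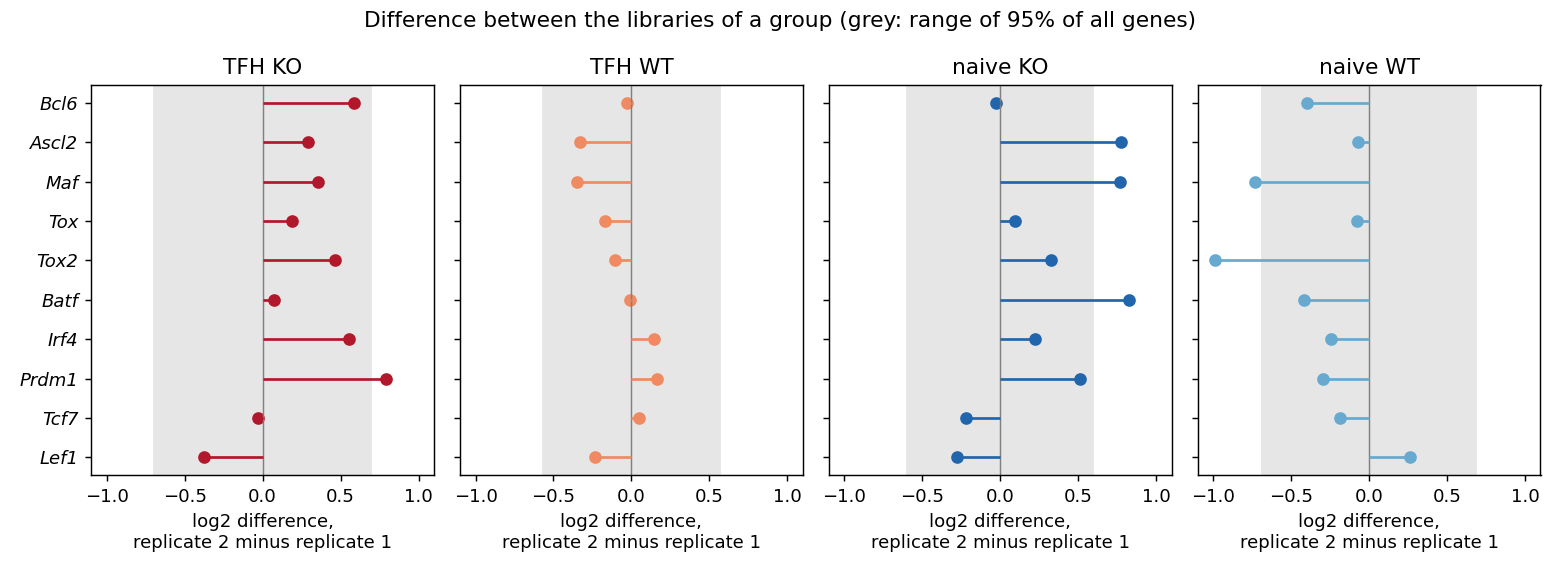
Log2 difference between replicate 2 and replicate 1 of each group for the 10 members; the grey band holds 95% of all genes. Batf, Ascl2 and Maf in naive KO, Tox2 and Maf in naive WT and Prdm1 in TFH KO lie outside the band, and no member of TFH WT does.

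Profiles were compared by the root mean square difference of centred log2 values over the 8 libraries. Maf and Batf were the most alike of the members, at 0.14, followed by Tox and Batf at 0.25, and Tcf7 was nearest to Lef1 at 0.26. Ascl2 and Lef1 were the least alike, at 1.51. Of 11553 genes at or above the mean level of the lowest member, Il21 was nearest to Ascl2 (0.11), then Synpo (0.13) and Prelid2 (0.15). Nearest to Bcl6 were Kdm2b (0.10), Trip6 (0.11) and Prim1 (0.11). These libraries fall into 4 groups, so a likeness mostly reflects the group means.

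Other genes of the TFH pathway were compared over the mean of both genotypes. Of 17 surface, cytokine and adaptor genes of TFH cells, 8 rose, 3 fell and 6 did not pass the test, with a median of 0.47. Of all genes, 18.3% were called higher and 19.8% lower, so the falls are near the share of all genes. The list was not split by the direction of each gene in TFH cells, so a rise is not read as a TFH trait. Il21 rose by 2.41 ± 0.17, Gpr183, which encodes a receptor for oxysterols, by 1.08 ± 0.07, Cd200 by 1.06 ± 0.09 and Cxcr4 by 0.76 ± 0.08. Il6ra and Il6st, which form the interleukin 6 receptor, fell by 0.37 ± 0.10 and 0.23 ± 0.08, and Cxcr5 by 0.80 ± 0.24. The count of falls was 1 without TFH KO replicate 1 or TFH WT replicate 1. The Il6st call ended without either of these (-0.20 and -0.18), naive KO replicate 1 (-0.21) or naive WT replicate 1 (-0.20). The Il6ra call ended where both TFH groups lacked replicate 2 (-0.28). With each library centred on its ribosomal protein genes, neither Il6ra (-0.34, adjusted p = 0.0567) nor Il6st (-0.20, adjusted p = 0.196) was called. The Cxcr5 call ended without any 1 of the TFH-labelled or naive KO libraries (-0.91 to -0.69).

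Of 20 regulators of other helper lineages, 5 rose, 6 fell and 9 did not pass the test, with a median of -0.04. Over all genes, 18.3% were called higher and 19.8% lower. Gata3, the Th2 regulator, rose by 0.66 ± 0.08, Hif1a by 0.96 ± 0.13, Ahr by 0.83 ± 0.15 and Bhlhe40 by 3.89 ± 0.43. Id3, an inhibitor of E proteins, fell by 0.79 ± 0.07, Zbtb7b by 0.76 ± 0.08 and Stat4 by 0.38 ± 0.07. Without replicate 2 of both TFH groups the Bhlhe40 call ended (3.73, adjusted p = 0.0777) and the count of rises was 3. Of 26 measured partners, corepressors and antagonists of the TFH factors, 8 rose, 3 fell and 15 did not pass the test, with a median of 0.06. These counts again stand beside 18.3% and 19.8% of all genes. The AP-1 genes Junb and Jund, whose products pair with BATF, rose by 2.04 ± 0.09 and 1.15 ± 0.09, the histone methyltransferase gene Ezh2 by 0.82 ± 0.08 and Notch1 by 0.63 ± 0.09. Notch2 fell by 0.57 ± 0.16, Foxo1 by 0.27 ± 0.09 and Nr3c1, the glucocorticoid receptor gene, by 0.21 ± 0.07. With each library centred on its ribosomal protein genes, none of them was called (-0.55, -0.24 and -0.18). None of these 3 falls was called without TFH WT replicate 1 (-0.46, -0.24 and -0.22) or without naive KO replicate 1 (-0.47, -0.21 and -0.16). That count was 1 without naive WT replicate 1 and without either TFH KO library.

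None of these listed genes was called between KO and WT in either label or in the interaction. Of all genes, 0% were called in TFH-labelled libraries, 0.0712% in naive-labelled ones and 0.0142% for the interaction. Among the smallest p-values of each list in TFH-labelled libraries were those of Cd200 at -0.60 ± 0.12 and Slamf6 at -0.30 ± 0.11, Stat4 at -0.23 ± 0.10, and Ezh2 at -0.37 ± 0.12 and Jund at 0.30 ± 0.12. In naive-labelled libraries they were those of Cxcr4 at -0.69 ± 0.12 and Il6st at -0.35 ± 0.11, Eomes at -0.38 ± 0.21 and Rora at 0.27 ± 0.16, and Ezh2 at 0.49 ± 0.12 and Nfatc2 at 0.25 ± 0.18. For the interaction they were those of Cd200 at -0.76 ± 0.17 and Cxcr4 at 0.61 ± 0.16, Runx1 at 0.36 ± 0.16 and Hif1a at -0.44 ± 0.25, and Ezh2 at -0.86 ± 0.17 and Foxo1 at 0.42 ± 0.17.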

How the data were processed

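Per the labels' protocols, libraries were read from 1 end at a length of 51 bp. BWA and the mouse build mm10 are named, per the submitters' processing notes; the counter, the annotation and the scaling are not stated there. For each library the authors deposited log2 values in a table of its own, from 1.16 to 19.48. Sorted values of the 8 libraries lie within 0.03 of each other's median above the lowest percentile, as quantile normalization gives, so depth cannot be recovered and overall shifts between libraries are removed.

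The values entered limma 3.58.1 (R 4.3.3) as deposited, with no pseudocount or filter, in 1 model with a mean per group, all 8 libraries and 4 residual degrees of freedom. Trend and robust options were on, and p-values were adjusted over all genes. There were 6 comparisons. The members and gene lists were chosen with earlier results of these data known, and the fit was checked on simulated data. Of each of 3 lists (TFH effectors, regulators of other lineages, partners) the text names up to 4 called genes per direction by p for the mean over genotypes, and the 2 with the smallest p otherwise; some results, among them 2 that this rule names, are not reported here. Alternatives changed the spread model, groups, filter, pseudocount, scaling, covariate, weights and libraries. Replicate numbers follow accession order, and the labels give no batch. Overlapping genes of the annotation, which 5 members have, are absent from the tables, and whether counting used strand is not stated.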

Additional observations from a re-analysis of the deposited data

How the results depend on the processing

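No paired analysis was possible because the labels carry no replicate numbers. Of the 10 members, the 6 called over the mean of both genotypes kept direction and call in every alternative in which they were tested; with only genes above the 25th percentile of mean level the count was 5, because Ascl2 was not tested. Batf joined them in 4 of 16 alternatives, among them the fits without naive KO replicate 1 or replicate 2, which drop most of its spread. Counts of called members with 1 library left out ranged from 3 to 7 in WT and from 2 to 4 in KO, while adding the B cell covariate gave 5 called members in KO. No called member, and none of the called listed genes that were refitted (those picked by the rule for named genes), changed sign. The Bcl6 minus Prdm1 difference ranged from 0.33 to 0.56 with 1 library left out, and its exact permutation p from 0.0286 to 0.0857 over all 10 alternatives. That of Tcf7 and Lef1 against Prdm1 was -0.26 without replicate 2 of both TFH groups (exact permutation p = 0.8), and the cause was not tested.

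Over all genes, the WT count of 3694 fell to 2298 and 1991 on leaving out replicate 1 or replicate 2 of TFH WT, to 2388 on leaving out naive WT replicate 2, and to 2104 where both TFH groups lacked replicate 2. The KO count of 2744 was 1399 and 1771 without TFH KO replicate 2 and naive KO replicate 2, 1225 without replicate 2 of both TFH groups and 1804 centred on 79 ribosomal protein genes. Between genotypes, 0 calls in TFH-labelled libraries became 1 with the compared groups only and 2 without naive WT replicate 2, 10 in naive-labelled ones became 17 without naive WT replicate 2, and 2 for the interaction ranged from 0 to 7. The read depth is unknown, so what it limits cannot be stated.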
